A study of Mus musculus with 4 samples.

Results

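Stem cells of the blood are isolated by sorting on surface proteins, and 9 of the receptors used for this are described here: Cd34, Kit, Flt3, Procr, Cd27, Cd93, Thy1, Prom1 and Cd38. Every probe set of the array whose platform annotation named exactly 1 gene, that gene being one of the 9, was taken as a member. This gave 13 of the 45101 probe sets, for 8 of the 9 genes. Cd38 was named on no probe set of the annotation used here, so it has no value below.

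Of the 4 samples, 2 held hematopoietic stem cells (HSC), the CD34(-)KSL cells, and 2 held multipotent progenitors (MPP), the CD34(+)KSL cells, all named as biological replicates, from mice of the C57BL/6 background. Both groups were purified by cell sorting and both carried the KSL phenotype, which includes KIT on the surface and excludes antigens of mature lineages. The age and number of mice are not given in the labels, and neither is whether replicates came from separate animals, and the p-values below reflect only how far these samples differed. RNA equivalent to 3000 cells went through 2 rounds of amplification before hybridisation to an Affymetrix Mouse Genome 430 2.0 array. A probe set is a group of short probes for one transcript, and its signal intensity is in arbitrary units.

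KIT and FLT3 are related receptor tyrosine kinases. KIT binds stem cell factor and sustains stem and progenitor cells, and FLT3 binds FLT3 ligand and is carried by progenitors with lymphoid and myeloid potential. PROCR binds protein C on endothelium and marks stem cells in mouse marrow. CD27 belongs to the tumour necrosis factor receptor family and binds CD70, CD93 is a membrane protein with a C-type lectin domain, and CD34 is a sialomucin. THY1 is a small protein held by a lipid anchor, PROM1 crosses the membrane several times and sits on membrane protrusions, and CD38 is an enzyme that consumes NAD outside the cell. Presence or absence of these proteins, rather than of their RNA, defines the sorting gates.

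The bases before the RefSeq gene start (GRCm38.p6) of 4 receptors that were called are shown, since their signals separated the groups most (Cd34, Flt3 and Procr) or belonged to the sort gate (Kit). Each is the 250 bases upstream of the start, 5′ to 3′, with capitals at matches on either strand to 4 motifs of blood transcription factors. The motifs were AGATAA or TGATAA for GATA factors, TGTGGT for RUNX factors, AGGAAG or CCGGAA for ETS factors and GGGCGG for SP1, and none of these matches overlapped another motif.
Cd34, chr1:194938571-194938820, plus strand: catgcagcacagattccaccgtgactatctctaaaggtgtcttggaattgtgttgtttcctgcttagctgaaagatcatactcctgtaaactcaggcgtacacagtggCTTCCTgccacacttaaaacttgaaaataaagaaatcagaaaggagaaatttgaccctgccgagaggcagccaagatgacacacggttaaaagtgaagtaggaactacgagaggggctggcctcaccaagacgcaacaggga
Flt3, chr5:147400490-147400739, minus strand: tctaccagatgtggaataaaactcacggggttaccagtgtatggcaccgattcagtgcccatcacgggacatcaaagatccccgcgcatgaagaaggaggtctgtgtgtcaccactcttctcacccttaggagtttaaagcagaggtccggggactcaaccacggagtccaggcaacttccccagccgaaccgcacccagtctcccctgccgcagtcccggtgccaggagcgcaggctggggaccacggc
Procr, chr2:155750967-155751216, plus strand: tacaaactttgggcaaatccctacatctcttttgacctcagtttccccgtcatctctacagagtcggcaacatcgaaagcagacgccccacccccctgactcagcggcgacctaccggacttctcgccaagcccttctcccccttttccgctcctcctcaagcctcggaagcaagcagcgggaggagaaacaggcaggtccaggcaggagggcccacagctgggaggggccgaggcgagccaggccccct
Kit, chr5:75574737-75574986, plus strand: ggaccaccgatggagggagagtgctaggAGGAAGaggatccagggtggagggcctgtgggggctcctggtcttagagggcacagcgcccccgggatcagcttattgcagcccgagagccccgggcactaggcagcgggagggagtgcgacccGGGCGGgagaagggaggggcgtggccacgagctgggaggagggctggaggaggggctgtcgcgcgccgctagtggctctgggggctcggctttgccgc
The window of Cd34 held 1 match, to the ETS letters, with its first base at position -142 from the start. The window of Kit, before the first of its 2 listed starts, held 1 match to the ETS letters and 1 to the SP1 letters, and those of Flt3 and Procr held none of the 4. Over all 32851 windows of that length in the table, 38.2% held the ETS letters, 32.7% the SP1 letters, 16.6% the GATA letters and 14% the RUNX letters. G and C made up 46.4% of the Cd34 window, 59.2% of that of Flt3, 61.6% of that of Procr and 70.8% of that of Kit, against a median of 52.4% over all windows. A match to letters is not a binding site, and the arrays measured no binding.

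The group labels were first set against genes known to be higher in one of these populations. Of 14 such genes, all tested, the 8 stem cell genes Slamf1, Mecom, Mllt3, Ndn, Vwf, Fgd5, Ctnnal1 and Hlf had positive log2 differences and 7 of them were called higher, with Hlf at 0.70 (limma adjusted p = 0.0518). The 6 progenitor or division genes Cd48, Dntt, Satb1, Mpo, Mki67 and Top2a were all called lower in HSC. Over all genes tested, 7.71% were called higher and 5.9% lower. These 14 genes were listed with earlier results of these data known, so they are no independent check of the labels. A gene was called at a limma adjusted p under 0.05 in a fit over 27022 probe sets, and a gene with several tested probe sets was represented by the brightest. Median signals were 26.1 and 26.9 units on the HSC arrays and 22.0 and 21.3 units on the MPP arrays. HSC replicate 2 stood apart in its actin control, whose 3′ to 5′ signal ratio was 9.42, against 4.99 to 5.26 on the other arrays. For the Gapdh control the ratio was closer, at 5.81 on HSC replicate 2, against 4.88 to 5.15 on the other arrays. The floor of an array, its highest signal among 27 bacterial control probe sets, was 16.9 and 16.7 units in HSC and 14.9 and 13.6 units in MPP. The median gene tested had a log2 difference, HSC minus MPP, of 0.10. The median size of the difference, whatever its sign, was 0.35. Differences up to that size, or similar to the offset at a gene's own level given below, are within what the typical gene showed.

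The receptors split in both directions. Flt3, Cd34, Cd27 and Cd93 fell in HSC, Procr and Kit rose, and Thy1 was not called. Of the 7 receptors tested, 6 were called, 4 lower and 2 higher, where 13.6% of 12382 genes were called, 5.9% lower and 7.71% higher. By probe set, 12 receptor probe sets were tested, 5 were called lower and 3 higher, where 10.6% of all probe sets were called (4.65% lower, 5.96% higher). The HSC and MPP values of 6 of the 7 did not overlap, as held for 58.7% of all genes tested. The receptors were listed for their use in telling such cells apart, so these counts describe them and no more. A log2 difference beyond 1 in either direction was measured for 3 of the 7 (Flt3, Cd34 and Procr) and for 12.6% of all genes. In bulk RNA, fewer cells that carry a transcript and less of it per cell cannot be told apart.

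**Figure D1:**
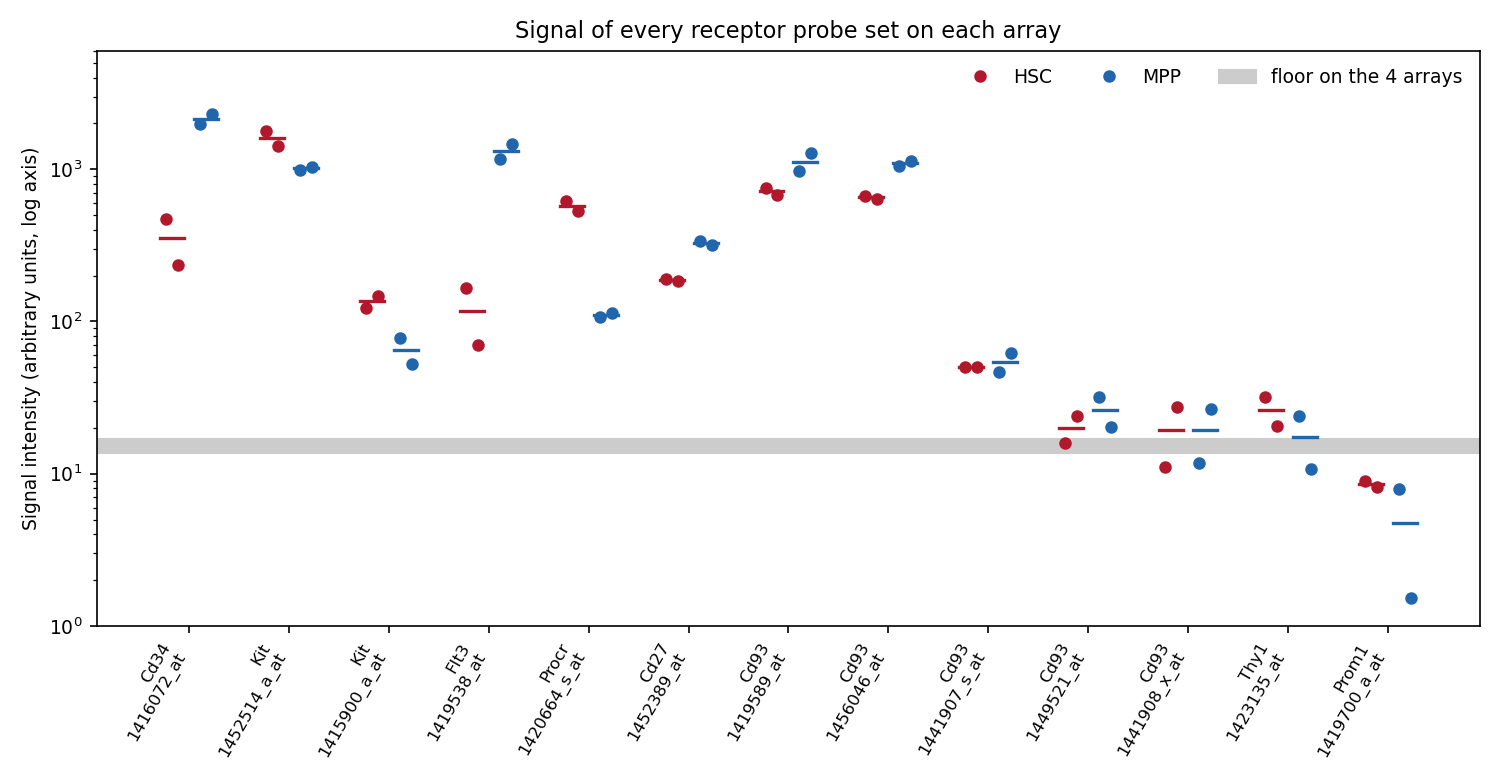
Signal intensity of each of the 13 receptor probe sets (x axis) on each array (points, y axis in arbitrary units on a log scale), HSC left of MPP, with a line at each group mean and a grey band at the floor of the 4 arrays. Cd34 and Flt3 lie lower in HSC, Procr lies higher, and Prom1 lies under the floor on every array.

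CD34 is the antigen that separated the groups, so its RNA checks the labels and is not a finding. Cd34 read 469 and 235 units on the HSC arrays, against 1967 and 2302 units on the MPP arrays. Both HSC values lay far under both MPP values, with a mean of 352 ± 165 in HSC and 2135 ± 237 in MPP (SD, n = 2 each). The log2 difference was -2.66 (95% confidence interval -3.25 to -2.06, limma adjusted p = 1.82e-04), a 6.31-fold lower signal in HSC. Both HSC values lay well above the floor of their arrays.

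Flt3, the receptor of FLT3 ligand, had the largest difference of the 7 receptors. It read 166 and 69.7 units on the HSC arrays, against 1171 and 1467 units on the MPP arrays. The groups were widely separated, at 118 ± 68.2 in HSC and 1319 ± 209.5 in MPP (SD, n = 2 each). The log2 difference was -3.53 (95% confidence interval -4.24 to -2.82, limma adjusted p = 9.36e-05), an 11.5-fold lower signal. Ordered from the most lowered of 12382 genes, Flt3 stood at rank 16 and Cd34 at rank 59.

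The HSC arrays disagreed on these 2 receptors more than on the others. HSC replicate 1 read 2.00 times HSC replicate 2 for Cd34 and 2.38 times for Flt3. Among genes in the same decile of mean level over all 4 arrays, 0.454% were as far apart between the HSC arrays as Cd34, and 0.551% as far apart as Flt3. For Kit, Procr, Cd27 and Cd93 that share was 28.5%, 55.3%, 90.8% and 64.7%. The mean level includes the high MPP values of Cd34 and Flt3, so their deciles were not matched to their lower HSC signals. These shares therefore do not measure how rare such a gap is among genes of that HSC signal. Other genes called lower in HSC were mixed in this respect. Mpo, myeloperoxidase of granulocytes, read 144 and 73.8 units on HSC replicates 1 and 2. Irf8 read 50.1 and 20.5 units, Csf1r 54.0 and 30.9 units and Cd53 73.6 and 42.9 units. In contrast, Satb1, a genome organiser, read 116 and 109 units, Mki67 555 and 546 units and Dntt 32.7 and 37.3 units. Pdgfrb, at 24.6 and 44.1 units, was higher on HSC replicate 2. Cd48, a surface ligand, read 10.4 and 32.4 units, the first of them under that array's floor of 16.9 units. Whether a shared difference between the HSC arrays underlies the gaps was not tested. HSC replicate 2 is also the array with the high actin ratio, whose part in the disagreement was not tested. Without HSC replicate 2 the log2 difference was -2.17 for Cd34 and -2.94 for Flt3, and without HSC replicate 1 it was -3.15 and -4.12. Such a fit leaves 1 HSC array, which is assumed to vary like the MPP pair, so it holds no measure of the HSC disagreement.

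Kit, the receptor of stem cell factor, had the opposite sign to its relative Flt3. Its brighter probe set read 1783 and 1415 units on the HSC arrays, against 995 and 1031 units on the MPP arrays. The groups did not overlap, with 1599 ± 259.95 in HSC and 1013 ± 25.3 in MPP (SD, n = 2 each). The log2 difference was 0.65 (95% confidence interval 0.28 to 1.02, limma adjusted p = 0.0328), while the median probe set at that level was at -0.10. The dimmer probe set, which shares the gene but has its own probes, read 123 and 148 units in HSC, against 77.7 and 52.5 units in MPP. It too was higher, by 1.01 on the log2 scale (95% confidence interval 0.42 to 1.61, limma adjusted p = 0.0367). The brighter probe set was no longer called once HSC replicate 1 or either MPP replicate was left out (at 0.48, 0.62 and 0.67, limma adjusted p = 0.0601, 0.220 and 0.182). Setting all array medians equal also ended it (0.41, limma adjusted p = 0.150). The dimmer was no longer called once replicate 2 of HSC or of MPP was left out (0.89 and 0.75, adjusted p = 0.0967 and 0.255). It also lost the call after quantile normalization (0.88, adjusted p = 0.0757), with equal array medians (0.78, 0.0875), when dim probe sets were kept (1.01, 0.0892) and without a trend in the prior variance (1.01, 0.119). KIT protein was in the gate of both groups, so this difference lies among cells all sorted for the receptor.

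Procr, which encodes the endothelial protein C receptor, was the receptor that rose most. It read 618 and 528 units on the HSC arrays, against 107 and 114 units on the MPP arrays. Each HSC array read several times each MPP array, with 573 ± 63.1 in HSC and 111 ± 4.86 in MPP (SD, n = 2 each). The log2 difference was 2.31 (95% confidence interval 1.88 to 2.74, limma adjusted p = 6.40e-05), a 4.95-fold higher signal, at rank 129 from the most raised gene. Procr has a single probe set, whose name ends in _s_at, a suffix given to probes that may match more than 1 transcript. Its log2 difference lay between 2.07 and 2.42 in the 13 alternatives that could be run, and it was called in each.

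Cd27, a co-stimulatory receptor of lymphocytes that early progenitors also carry, was modestly lower. It read 190.5 and 185 units on the HSC arrays, against 339.5 and 320.0 units on the MPP arrays. Replicates were close and the groups apart, with 188 ± 4.20 in HSC and 329.8 ± 13.8 in MPP (SD, n = 2 each). The log2 difference was -0.79 (95% confidence interval -1.21 to -0.38, limma adjusted p = 0.0225), a 1.73-fold lower signal. The median probe set at its level was at 0.01. Cd27 lost its call without MPP replicate 1 or MPP replicate 2 (-0.75 and -0.84, adjusted p = 0.167 and 0.117).

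Cd93 was read by 5 probe sets, which did not all behave alike. The brightest read 748 and 681 units in HSC, against 976 and 1271 units in MPP, and the next read 667 and 639 units in HSC, against 1056 and 1139 units in MPP. In both, the groups did not overlap, and both were called lower, by log2 differences of -0.64 (95% confidence interval -1.03 to -0.24, limma adjusted p = 0.0457) and -0.74 (-1.09 to -0.39, adjusted p = 0.0133). The third read 50.3 and 50.5 units in HSC, against 46.4 and 61.9 units in MPP, and the 2 dimmest lay between 11.1 and 31.9 units on all arrays. These 3 overlapped between the groups, with log2 differences of -0.08, -0.30 and -0.01 and intervals as wide as -1.23 to 0.63 and -1.15 to 1.13. The difference of the brightest probe set, -0.64, lies within the interval of each of the 3. The brightest was not called once HSC replicate 2 or either MPP replicate was left out (-0.57, -0.83 and -0.45, adjusted p = 0.0648, 0.0738 and 0.432), after quantile normalization (-0.50, adjusted p = 0.107) and with the mean of all 5 (-0.35, adjusted p = 0.269). The second was not called once either MPP replicate was left out (-0.80 and -0.69). It also lost its call without a trend in the prior variance (-0.74, limma adjusted p = 0.134).

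Thy1 and Prom1 were dim. Thy1 read 32.1 and 20.5 units on the HSC arrays, against 24.0 and 10.7 units on the MPP arrays. The groups overlapped and MPP replicate 2 lay under its floor of 13.6 units. The log2 difference of Thy1 was 0.50 (95% confidence interval -0.52 to 1.53, limma adjusted p = 0.552), an interval that holds changes of more than the measured size in either direction, and the median probe set at its level was at 0.25. Prom1 read 8.90 and 8.17 units in HSC, against 7.95 and 1.52 units in MPP. All 4 values lay under the floor, and Prom1 did not pass the filter on dim probe sets, was not tested and has no fold.

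**Figure D2:**
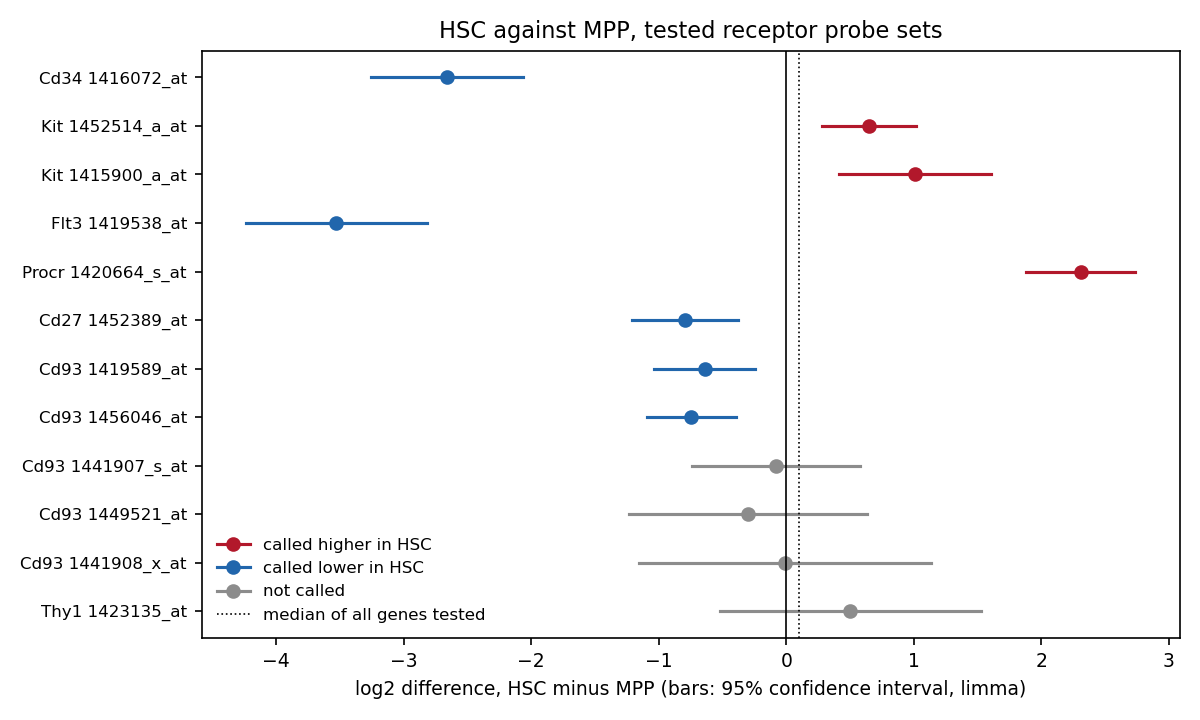
Log2 difference, HSC minus MPP (x axis), of the 12 tested receptor probe sets (y axis) with 95% confidence intervals from limma, coloured by call, with lines at 0 and at the median of all genes tested. The intervals of Flt3, Cd34 and Procr lie farthest from 0, and those of Thy1 and the 3 dimmer Cd93 probe sets span it.

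**Figure D3:**
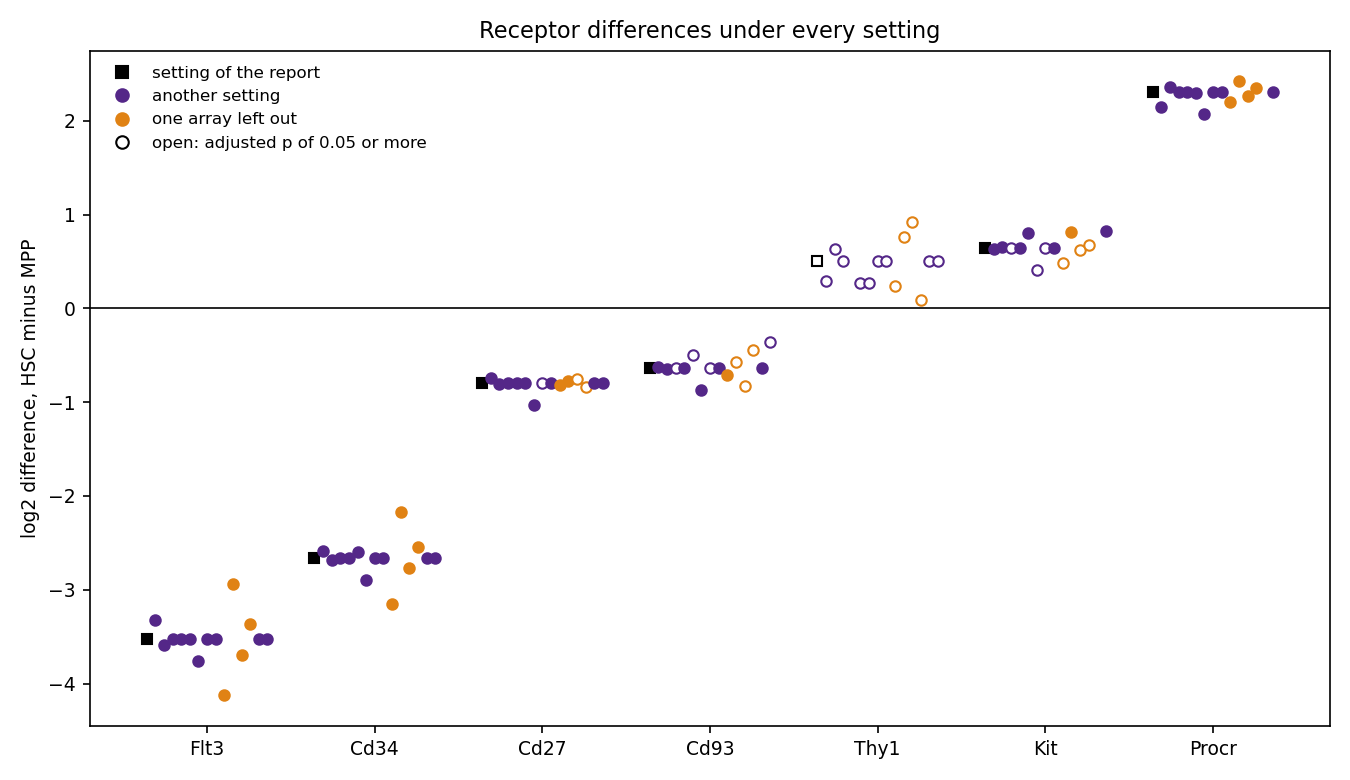
Log2 difference, HSC minus MPP (y axis), of each tested receptor (x axis) in the setting of the report (squares), in other settings and with one array left out (circles), with open symbols where the adjusted p was 0.05 or more. Flt3, Cd34 and Procr stay called in every setting that could be run, while Kit, Cd27 and Cd93 keep their sign but not always their call.

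The ligands, partners and closest relatives of the receptors changed in both directions. Of 35 listed genes, 31 had a probe set and 21 were tested, of which 6 were called higher and 2 lower, where 7.71% of all genes were higher and 5.9% lower. Their median log2 difference was -0.12, against 0.10 over all genes, and it was 0.03 without HSC replicate 2 or MPP replicate 1. The 2 that fell were kinases of the same family as KIT and FLT3. Csf1r, the receptor of macrophage colony-stimulating factor, read 54.0 and 30.9 units in HSC, against 282 and 552 units in MPP (log2 difference -3.09, limma adjusted p = 2.95e-04). Pdgfrb, a platelet-derived growth factor receptor, was at -2.17 (adjusted p = 0.00124). Of the 4 kinases of that family that were tested, Kit was called higher and Flt3, Csf1r and Pdgfrb lower. Slc12a2, an ion cotransporter, rose by 1.19 on the log2 scale (adjusted p = 0.00225). The integrin subunits Itgb3 and Itgav, which form a pair that binds THY1, rose by 2.42 and 0.76 (adjusted p = 0.00994 and 0.0241). Only 1 of the 2 tested Itgav probe sets was called higher, and only that 1 had a positive difference. For Itgb3, MPP replicate 1 read 74.1 units and MPP replicate 2 15.2 units, against 205 and 223 units in HSC. Without MPP replicate 2, the members called higher numbered 2, and 3 without HSC replicate 2 or with equal array medians. Among direct ligands and co-receptors, Kitl, stem cell factor itself, read 29.1 and 19.9 units in HSC, against 32.6 and 21.2 units in MPP. Thbd, the thrombomodulin that works with PROCR on endothelium, was at -0.27 (adjusted p = 0.630), and neither was called.

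Of 44 listed genes that carry the signal of KIT and FLT3 inside the cell, 38 were tested, of which 3 were called higher and 0 lower in limma (6 and 2 at an unadjusted p under 0.05), and the median log2 difference was 0.08. Pik3r1, a regulatory subunit of phosphoinositide 3-kinase, read 828 and 1175 units in HSC, against 290.2 and 300.1 units in MPP (log2 difference 1.72, limma adjusted p = 4.06e-04), and 3 of its 4 probe sets were called higher. Jak2, a kinase of cytokine receptors, was higher by 0.89 (adjusted p = 0.00592) and the adaptor gene Gab1 by 0.78 (adjusted p = 0.0262). Jak2 and Gab1 were each called on 1 of 2 tested probe sets, with the other positive but not called. Over all genes 13.6% were called. Without MPP replicate 1 or MPP replicate 2, 1 member was called higher, with equal array medians 2, and without HSC replicate 1 or 2 the members called lower numbered 2 and 1.

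Other surface antigens used in sorting were called in both directions. Of 35 listed, 31 were tested, 14 were called higher and 7 lower, where 7.71% and 5.9% of all genes were. The median log2 difference was 0.62, and with equal array medians it was 0.39, with 9 called higher. Their use to tell these populations apart is why they were listed, so the count is a description. Slamf1, Abcg2 and Jam3 led upward by p, Slamf1 with 2 of its 3 tested probe sets called higher. Slamf1, the CD150 receptor, was 3.29 higher, Abcg2, a dye efflux pump, 1.30 higher and Jam3, a junction protein, 2.61 higher on the log2 scale (limma adjusted p = 2.11e-05, 7.45e-04 and 0.00105). Cd48, Cd53 and Cd244a led downward, at -5.46, -3.31 and -4.25 (adjusted p = 8.26e-06, 5.65e-05 and 1.30e-04). Cd48 and Cd244a encode a ligand and its receptor, and Cd53 a tetraspanin. Cd48 lay under the floor on HSC replicate 1. Cd244a lay under the floor on both HSC arrays, so its signal was at least 13.3-fold lower. Without MPP replicate 1 or MPP replicate 2 the members called higher numbered 9, and 4 were called lower without MPP replicate 2.

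Transcription factors of blood cells, some of which are known to act on Kit, Cd34 or Flt3, were called higher in 8 of 25 tested and lower in 3, where 7.71% and 5.9% of all genes were. The median log2 difference was 0.16, and -0.08 with equal array medians. Mecom read 2187 and 2317 units in HSC, against 406 and 342 units in MPP (log2 difference 2.58, limma adjusted p = 1.04e-05). Of its 2 tested probe sets, 1 was called higher and both had positive differences. Gata2, which is known to act on Kit, rose by 1.41 (adjusted p = 0.00151) and Gfi1b, a transcriptional repressor in the erythroid and platelet lineages, by 1.51 (adjusted p = 0.00179). Cebpa, the granulocyte factor, lay under the floor on both HSC arrays and was at least 3.97-fold lower (adjusted p = 0.00628). Cbfb, the partner of RUNX factors, fell by 0.92 (adjusted p = 0.0111) and Gfi1, a close relative of Gfi1b, by 1.06 (adjusted p = 0.0321). Runx1 was at -0.09 and Myb at -0.01, without a call. The members called higher numbered 4 without MPP replicate 2, and the members called lower numbered 1 without MPP replicate 1 or MPP replicate 2 and 5 without HSC replicate 1 or with equal array medians.

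**Figure D4:**
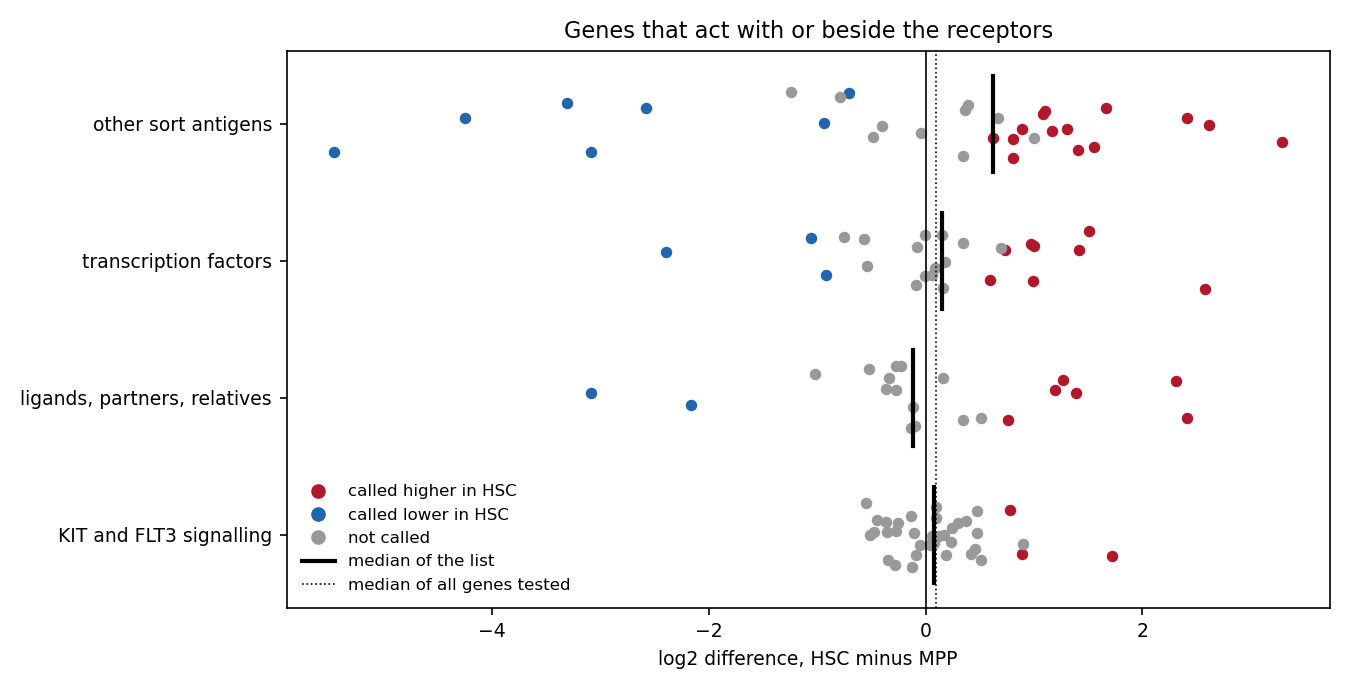
Log2 difference, HSC minus MPP (x axis), of each tested gene of 4 lists (y axis), coloured by call, with a bar at each list's median and a dotted line at the median of all genes tested. Other sort antigens spread widest, from -5.46 for Cd48 to 3.29 for Slamf1, and genes of KIT and FLT3 signalling lie closest to 0.

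Endothelial cells carry several of these receptors and mast cells keep KIT, so markers of both, and of mature blood cells, were read beside them. Summed over 15 endothelial markers, the signal was 1769 and 1848 units in HSC, against 593 and 601 units in MPP. Vwf, which is also a stem cell gene of the first list, gave 920.2 and 1183 units of the HSC sums. The other 14 summed to 849 and 665 units in HSC, against 589 and 588 units in MPP. Egfl7, which ran the opposite way, gave 191 and 74.2 units of these HSC sums and 303 and 301 units of these MPP sums. Of 13 endothelial markers tested, 6 were called higher (Vwf, Sox18, Cldn5, Kdr, Robo4 and Tie1) and 1 lower (Egfl7). Over all genes, 7.71% were called higher and 5.9% lower. Endothelial markers called higher numbered 4 after quantile normalization or with equal array medians. They numbered 3 without a trend in the prior variance and 2 with no filter on dim probe sets. Fewer were also called once HSC replicate 2 or either MPP replicate was left out. Of the 4 tested probe sets of Egfl7, 1 was called lower and 1 had a positive difference. Sox18, a transcription factor of vessels, read 114 and 77.8 units in HSC, against 4.39 and 10.6 units in MPP, under the floor there. Robo4, a guidance receptor of vessels, read 99.8 and 99.7 units in HSC, against 37.4 and 50.2 units in MPP. Cdh5, the cadherin that defines endothelium, lay under the floor on all 4 arrays, and Pecam1 read 7.21 and 18.8 units in HSC, against 31.4 and 29.9 units in MPP. Summed over 9 mast cell markers, the signal was 242 and 254 units in HSC, against 316 and 362 units in MPP, and Mcpt4 lay under the floor on all arrays. Of 4 mast cell markers tested, 1 was called, Cpa3, a carboxypeptidase, at 87.3 ± 3.96 units in HSC and 175 ± 7.93 units in MPP (SD, n = 2 each). Of the 9 mast cell markers, 2 lay above the floor on all arrays. Of 20 antigens of mature lineages, 8 lay under the floor on all arrays, among them Cd3e, Cd4, Cd79a and Itgam. Of 6 tested, 1 was called, Nkg7, a granule protein of killer cells, with a log2 difference of -2.74 (limma adjusted p = 6.26e-05). Their sums were 2496 and 2651 units in HSC, against 2722 and 2727 units in MPP, of which Ptprc, carried by nearly all blood cells, made up 2025 to 2227 units. Beside the mast cell and lineage counts stands the 13.6% of all genes that were called. The part of endothelial, mast and mature blood cells in the receptor values was not tested.

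Genes whose pattern over the 4 arrays was most like that of each called receptor were sought by the distance between log2 values centred on each gene's own mean, over 4 arrays in 2 groups. The nearest to Flt3 were Il1r1, Irf8 and Cd53 (distances 0.19, 0.40 and 0.42). Il1r1 read 20.6 and 8.14 units in HSC, against 194 and 240.0 units in MPP. Nearest to Cd34 were Kcnk12, Cebpa and Mex3b (0.26, 0.28 and 0.29), and nearest to Procr were Erp27, Mamdc2 and Nckap1 (0.10, 0.11 and 0.15). Kit was nearest to Wdr45, Praf2 and Calhm6, Cd27 to Map4k4, Cep83 and Cwc25, and Cd93 to Dnajc11, Tada2b and Mphosph6, at distances of 0.03 to 0.08. Kcnk12 and Cebpa lay under the floor on both HSC arrays, Il1r1 and Mex3b on 1, and Erp27 on both MPP arrays, so their distances rest in part on background signal. With 4 arrays such likeness describes the same 4 values and no more.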

How the data were processed

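The authors deposited 1 linear intensity per probe set and array, without detection calls. The sources used here do not give the software. Leaving out the top and bottom 2% of an array's values, its mean was 100.0 on each of the 4, as scaling to a common target gives. Of 45101 probe sets, 64 controls were left out, and of the rest 34945 named 1 gene, 932 several and 9160 none in the platform annotation, with symbols updated through a RefSeq table (34741 matched).

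Before testing, 6.01 (0.25 of the overall median) was added to each intensity and log2 taken, which understates the change of dim genes. Array medians lay within 0.27 on that scale, under the limit of 0.5, so no normalization was added. The lowest 40% of probe sets by mean were left out, leaving 27022 probe sets and 12382 genes. The contrast HSC minus MPP was fitted by limma 3.58.1 under R 4.3.3 (lmFit, then eBayes with trend), 2-sided and without covariates, with Benjamini-Hochberg adjustment over all probe sets tested and a threshold of 0.05. Degrees of freedom were 2 (residual) and 8.48 (prior), and the 4 arrays limit the precision. It was tested on simulated data.

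The floor of an array was its highest signal among 27 Bacillus subtilis control probe sets, and the labels do not say whether such RNA was added. A group under the floor on both arrays gives its change as at least N-fold. The named genes were every receptor probe set, up to 3 called genes per direction and list by p, the 14 marker genes, and the 3 genes nearest each called receptor. Kitl, Thbd, Runx1, Myb, Cdh5, Pecam1, Mcpt4, Ptprc, Cpa3, Egfl7, Sox18, Cldn5, Kdr, Robo4, Tie1 and the lineage antigens named were added after their values were seen. The receptors, the 8 lists (192 genes, 142 tested) and the tests were chosen with earlier results of these data known. Same-numbered replicates showed no pairing (correlation of their deviations from the group means 0.03). Alternatives changed the pseudocount, filter, normalization, prior, pairing, probe set rule or arrays used. Promoter sequences came from RefSeq GRCm38.p6, where 7 of the 9 receptors were matched.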

Additional observations from a re-analysis of the deposited data

How the results depend on the processing

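Flt3 and Cd34 were called lower in 14 of 14 alternatives, Procr higher in 13 of 13 and Thy1 in none of 13; no receptor changed sign. Kit was called in 7 of 13, Cd27 in 11 of 14 and Cd93 in 7 of 14. With no filter on dim probe sets, Kit (0.65) and Cd93 (-0.64) lost their call, 1 receptor was called higher, and 1697 probe sets were called, 917 higher and 780 lower, where the report's setting called 2868, 1611 higher and 1257 lower. Without a trend in the prior variance, Kit (0.65), Cd27 (-0.79) and Cd93 (-0.64) lost theirs, leaving 3 receptors (1 higher, 2 lower) and 1007 probe sets (633 and 374). With equal array medians Kit was at 0.41, 1 receptor was called higher, and the split was 1020 higher and 2379 lower. That setting moved the median tested probe set to -0.13 from 0.11, and quantile normalization moved it to -0.01 and Cd93 to -0.50. Averaging the probe sets of each gene put Cd93 at -0.35. Without probe sets ending in _x_at, _s_at or _a_at, 0 receptors were called higher, since Kit and Procr have no other probe set. Leaving out each array in turn, the lone array of its group assumed to vary like the other pair, gave 1594 to 3919 probe sets (1026 to 2011 higher, 568 to 1908 lower) and 3 to 5 receptors (1 to 2 higher, 2 to 4 lower). Over those fits Kit lay between 0.48 and 0.81, Cd27 between -0.84 and -0.75 and Cd93 between -0.83 and -0.45. The replicate block, on numbers that pair nothing known, called 4358 probe sets (2525 higher, 1833 lower) with 1 residual degree of freedom and changed no receptor's call. Of 224 recomputed list counts, 182 stayed within 1.5 times. Without a trend, other sort antigens called higher numbered 5, transcription factors 2, signalling genes 1 and ligands and partners 0, and with no filter 8, 6, 3 and 2. Apart from the setting that left Kit and Procr without a probe set, the cause of lost calls was not tested. Signals near the floor limit Thy1, Prom1 and the dim Cd93 probe sets.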

Other observations

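The receptors' neighbours in the genome were read as a further description. Kit, Flt3, Prom1 and Cd38, 4 of the 9 receptors, lie on chromosome 5 in the RefSeq annotation. Of 14 genes next to a tested receptor, 11 were tested, 1 was called higher and 1 lower, where 13.6% of all genes were called. Kdr, a receptor of vascular endothelial growth factor that lies beside Kit, read 59.2 and 115 units in HSC, against 28.9 and 10.6 units in MPP (log2 difference 1.88, limma adjusted p = 0.0203). Nxt1, an RNA export factor that lies beside Cd93, read 303 and 299.5 units in HSC, against 568 and 440.0 units in MPP (log2 difference -0.72, adjusted p = 0.0362). Neither neighbour of Cd34 or Procr was called, and their 4 log2 differences lay between 0.06 and 0.72.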
